A study of Mus musculus with 2 samples.

Results

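The lysosomal genes described here are 40 genes for degradative enzymes, their cofactors, membrane proteins of the organelle and a regulator of its genes. They were chosen by name, as all probe sets annotated to exactly 1 of the 40 symbols, among 12393 genes with such a probe set on the array. Of the 40 genes, 38 had a probe set and together they had 71, while Arsb and Cd63 had none. Total RNA of Id1-/- (Id1 KO) mouse embryonic stem (ES) cells and of wild-type (WT) ES cells was hybridised to 1 array per genotype. Both cultures grew on gelatin in medium containing serum and LIF (leukaemia inhibitory factor), which keeps mouse ES cells self-renewing. The Id1 allele, the parental line, its strain and the number of clones are not stated in the labels. The comparison asks how these transcripts differ when Id1, an inhibitor of basic helix-loop-helix transcription factors, is missing.

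Lysosomes break down proteins, glycans and lipids that reach them by endocytosis or autophagy. Most of the enzymes are made in the endoplasmic reticulum, tagged with mannose 6-phosphate in the Golgi and carried to an acidic lumen, which is enclosed by heavily glycosylated membrane proteins. Many of their genes are switched on together by TFEB and its relatives TFE3 and MITF, which bind a promoter element named CLEAR (coordinated lysosomal expression and regulation). In mouse ES cells, TFE3 and its inhibitor folliculin are known for a part in the exit from self-renewal.

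Each gene is represented by its brightest probe set, and differences are knockout minus wild type on the log2 scale after each array was centred on its median (intensities of 155.0 and 152.5). A gene passed the brightness filter when the brighter of its values reached the median of its array, and differences of at least 2-fold were counted. With 1 array per genotype there is no replicate error and no test, and clone, culture and array cannot be told apart from genotype. The number of arrays limits the precision. As technical yardsticks, probe sets of the same gene differed with a median SD of 0.22 over 2566 genes. The log2 differences of 18 probe sets for hybridisation spikes, several for the same spike, had an SD of 0.22. The middle 90% of the 7369 genes past the filter lay between -0.91 (5th percentile) and 0.89 (95th percentile). Id1 itself read 461 in the knockout against 1045, a difference of -1.20, and since the deleted part is not stated this checks the label only in part. All 10 ES cell markers passed the filter, with summed intensities of 58005 and 71400, although Nanog (-1.33) and Esrrb (-1.46) were at least 2-fold lower in the knockout. In RNA from a whole culture, fewer cells of a type and less RNA per cell cannot be told apart.

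The lysosomal genes did not move as a block. Of the 35 that passed the filter, 29 differed by less than 2-fold. At least 2-fold lower in the knockout were 4 (Manba, Tfeb, Lamp2 and Gla), and past 2-fold on the higher side were 2 (Ctsc and Laptm4b). The 4 lower genes are 11.4% of 35 and the 2 higher genes 5.71%, where 3.92% of all genes past the filter were at least 2-fold lower and the same share, 289 genes, at least 2-fold higher. Lamp2 and Gla lie on the X chromosome, whose genes as a whole were lower in the knockout. Among the 33 passing lysosomal genes on other chromosomes, 2 were lower and 2 higher (6.06% each), where 3.34% and 3.93% of all genes outside X and Y were. The median difference was -0.11 over the 35 genes and -0.06 over the 33, and it was -0.01 over all genes past the filter. Above 0 lay 13 of the 35 and below 0 lay 22, and 15 of the 35 were within 0.22, the median SD between probe sets, of 0. Tfeb and Neu1 passed through the wild-type array alone, so a difference in that direction was built into their passing, and the other 33 passing genes reached the median on both arrays. The members that did not pass were Ctsh, Npc1 and Ids.

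**Figure D1:**
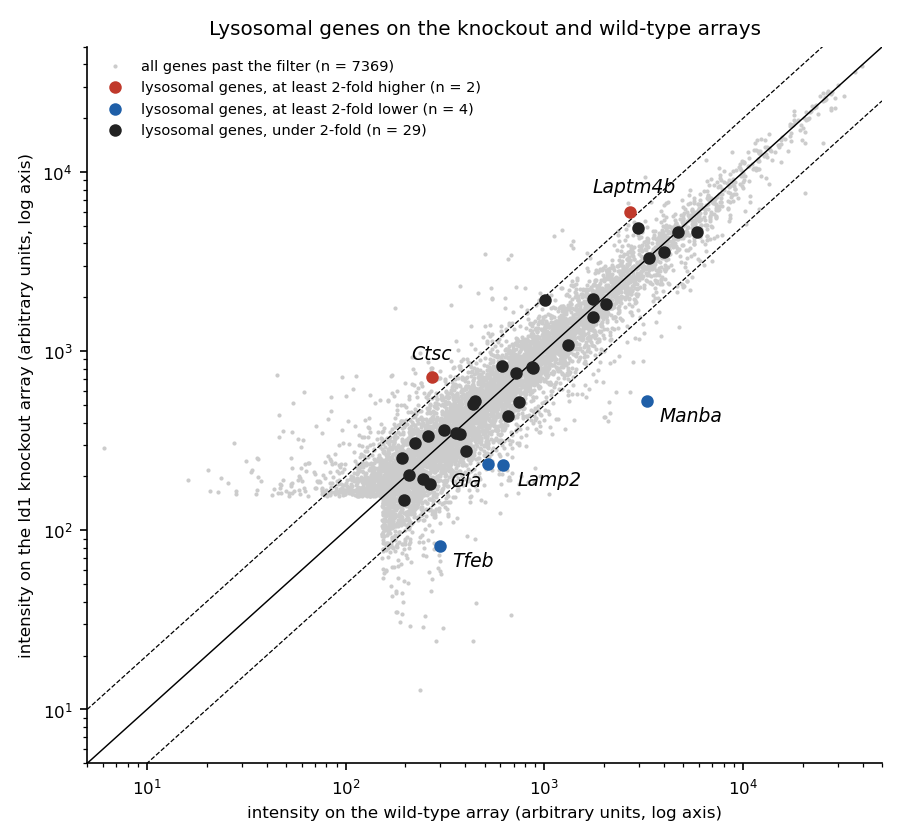
Intensity of each gene on the wild-type array (x axis) and the Id1 knockout array (y axis), both in arbitrary units on log axes; grey points are the 7369 genes past the filter, coloured points the 35 lysosomal genes, the solid line marks equal intensity and the dashed lines a 2-fold ratio. Most lysosomal genes follow the solid line, and Manba (527 against 3301) lies farthest from it.

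The regulators were led by Tfeb, an activator of lysosomal and autophagy genes. Its single probe set read 82.1 in knockout and 299 in wild-type cells, 3.70-fold lower (log2 difference -1.89), at rank 48 from the lowest of the 7369 genes. The knockout signal lay below the array median, where values are noisier: of the 2457 dimmest genes 6.43% were at least 2-fold lower, of the 2457 brightest 2.16%. Mitf, a relative that binds the same element, was also lower, at 87.0 against 199 (-1.22), by 1 passing probe set. Like Tfeb, Mitf passed the filter through the wild-type array alone, so a lower value was built into its passing. Tfec, another relative, was at the floor on both arrays (4.04 and 7.49), and Tfe3 had no probe set. Flcn, which encodes folliculin, read 521 and 531 (-0.05). Grn encodes progranulin, a secreted protein that is cut into granulins in the lysosome, and read 3606 and 4010 (-0.18), with its other passing probe sets at -0.32 and -0.37.

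Because Tfeb acts through CLEAR elements, the promoters of the lysosomal genes were searched on both strands for GTCACGTG, which is most of that element. Promoter entries of RefSeq (assembly GRCm38.p6, from 250 bases before to 50 bases after a start site) existed for 34 of the 40 genes. The letters were found in 9 of the 34 (26.5%), against 2.55% of all 27025 genes with such entries and 5.14% of the 6055 of these that passed the filter. The place nearest the start site is shown for each of the 9, in 30 bases read 5′ to 3′ on the strand of the gene, with the matching letters in capitals (CACGTGAC is the same motif on the opposite strand).
Cln3 (minus strand, chr7:126583339-126583368): acgggtactgtCACGTGACccccaacctgc
Mcoln1 (plus strand, chr8:3500463-3500492): ggcgccccgctCACGTGACcgcggcgcatg
Ctsd (minus strand, chr7:142387907-142387936): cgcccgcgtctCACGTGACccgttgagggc
Ctsa (plus strand, chr2:164833767-164833796): atgcagatgctCACGTGACcagagctacac
Lamp1 (plus strand, chr8:13159122-13159151): atgccgactggCACGTGACcacatcacgtg
Glb1 (plus strand, chr9:114401017-114401046): gctgcttctgaGTCACGTGgcctacagagg
Lgmn (minus strand, chr12:102439125-102439154): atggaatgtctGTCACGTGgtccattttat
Arsa (minus strand, chr15:89477424-89477453): ttcaactcagtGTCACGTGttgtctgctcc
Gla (minus strand, chrX:134601183-134601212): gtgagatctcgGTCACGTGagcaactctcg
The motif began 5 bases after the start site in Ctsa and between 18 bases (Arsa) and 196 bases (Gla) before it in the other 8. In Cln3 the match is a full palindrome, so both strands match at the same place.

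All 9 genes with the motif passed the filter, and their differences lay on both sides of 0. Lower were Gla (-1.16), Lgmn (-0.56), Lamp1 (-0.35), Ctsd (-0.16) and Glb1 (-0.15), and higher were Cln3 (0.45), Arsa (0.34), Mcoln1 (0.21) and Ctsa (0.20). Their median was -0.15, against -0.08 for the 22 passing lysosomal genes whose entries lack the letters. The 311 genes past the filter with the motif had a median of 0.00481, and of them 3.22% were at least 2-fold lower and 1.93% past 2-fold on the higher side. The lysosomal genes that carry these letters showed no common direction. The match is to letters only, and binding was not measured.

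The glycosidases, which strip sugars from glycoproteins and glycolipids, mostly read lower in the knockout. All 10 passed the filter, 9 of them below 0, with a median of -0.40, and 2 were at least 2-fold lower. Manba encodes beta-mannosidase, which removes the last mannose in the breakdown of N-linked glycans. Its single probe set read 527 in knockout and 3301 in wild-type cells, 6.36-fold lower (-2.67), the sixth lowest of the 7369 genes. Both values were well above the array medians. The X-linked gene Gla encodes alpha-galactosidase A, the enzyme missing in Fabry disease, and read 236 against 518, 2.24-fold lower (-1.16). Its other probe set was at the floor on both arrays (5.56 and 12.0) and gives no information.

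Of the other glycosidases, none reached 2-fold. Man2b1, the alpha-mannosidase that works on the same glycans as Manba, read 435 and 655 (-0.62). Gaa, which digests glycogen and is deficient in Pompe disease, read 523 and 749 (-0.54), and its other probe set gave -0.50. Hexa, a subunit of beta-hexosaminidase, read 807 and 875 (-0.14). These values go in the direction of Manba but are small. Glb1 (beta-galactosidase), Neu1 (sialidase) and Ctsa form a complex in which Ctsa protects its partners. Their differences were -0.15, -0.43 and 0.20, so the complex showed no shared direction. For 3 glycosidases the passing probe sets spread widely. Idua, which acts on heparan and dermatan sulphate, gave -0.37 by its brightest and 0.66 by its other probe set. Gusb, the beta-glucuronidase, gave 0.19 and 0.99, and Fuca1, the alpha-fucosidase, gave -0.11, 0.25 and -0.42.

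Since Id1 holds back E proteins, which bind E-boxes such as CAGCTG and CAGGTG, these letters were searched as well, again on both strands. The Manba entry holds both, and its CAGCTG lies 33 bases before the start site.
Manba (plus strand, chr3:135485566-135485595): gcgggaagcgctCAGCTGacctgggggcgg
Such letters are common: CAGCTG was found in 18.3% of all genes with entries and in 9 of the 34 lysosomal genes (26.5%), and CAGGTG in 22.6% and in 6 of the 34 (17.6%). A Tfeb entry holds CAGGTG, and no Tfeb entry holds CAGCTG.

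Proteases differed in both directions, with cysteine cathepsins at the upper end. Of 9, 8 passed the filter, 5 above and 3 below 0, with a median of 0.12. Ctsc encodes the dipeptidyl peptidase that activates granule serine proteases in immune cells. It read 721 in knockout and 273 in wild-type cells, 2.60-fold higher (1.38) by its single probe set, at rank 149 from the highest of the 7369 genes. Below 2-fold lay Ctsz, a carboxypeptidase, at 1941 and 1009 (0.92), and Ctsl, an endopeptidase, at 4871 and 2966 (0.69). The other passing probe sets of Ctsz were also higher but by less, 0.51 and 0.23.

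The remaining proteases stayed near equality or were lower. Ctsb, an abundant cysteine protease of most cell types, read 1089 and 1310 (-0.29), with -0.40 by its other passing probe set. Lgmn, the asparaginyl endopeptidase that trims several cathepsins, read 279 and 404 (-0.56). The aspartic protease gene Ctsd read 1847 and 2034 (-0.16). The cathepsins therefore did not go one way, and Ctsd, Ctsa (511 and 436, 0.20) and the tripeptidyl peptidase gene Tpp1 (753 and 722, 0.04) were within the median SD between probe sets. Ctsh, an aminopeptidase, stayed below the filter at 83.4 and 93.8.

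Enzymes of lipid breakdown and their cofactors had the narrowest range of differences among the roles. All 6 passed, none reached 2-fold, and their differences ran from -0.20 to 0.38 with a median of -0.05. Since 3.92% of all genes were past 2-fold in each direction, a count of none in 6 is near that share. Npc2, the soluble protein that hands cholesterol to the membrane protein Npc1, read 3319 and 3373 (-0.05), and its other probe set gave -0.06. Psap, the precursor of the saposins that present sphingolipids to their hydrolases, read 1553 and 1752 (-0.20), with 0.0081 by its other probe set. Both genes were bright on both arrays and nearly equal between them. Smpd1 (acid sphingomyelinase) gave -0.06, Lipa (acid lipase) -0.04, Asah1 (acid ceramidase) 0.14 and Ppt1 (palmitoyl-protein thioesterase) 0.38. The other passing probe set of Lipa gave 0.27. Of the sulfatases, which remove sulphate from glycosaminoglycans and sulphatide, 2 of 4 passed: Galns at 182 and 265 (-0.56) and Arsa at 334 and 259 (0.34). Ids, an X-linked sulfatase, did not reach the filter by its brightest probe set (125 and 149), and the 1 of its 5 probe sets that passed read 95.1 and 162 (-0.80).

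Membrane proteins of the lysosome included a gene past 2-fold in each direction. Laptm4b encodes a membrane protein of late endosomes and lysosomes with several transmembrane segments. It read 5991 in knockout and 2691 in wild-type cells, 2.19-fold higher (1.13). The other 2 probe sets read 1647 and 938 (0.79) and 1202 and 709 (0.74), so all 3 were higher but 2 of them stayed under 2-fold. Its paralog Laptm4a was equal, at 4610 and 4679 (-0.05). Lamp2, a highly glycosylated membrane protein needed for chaperone-mediated autophagy and for the fusion of autophagosomes, read 231 and 621, 2.73-fold lower (-1.45). Its other passing probe sets read 263 and 295 (-0.19) and 110 and 174 (-0.69). All 3 passing ones were lower, by very different amounts, and the brightest alone reached 2-fold. Lamp1, which shares the luminal coat with Lamp2, read 4663 and 5840 (-0.35).

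The remaining membrane proteins were slightly higher or equal. Cln3, the protein altered in juvenile Batten disease, gave 0.45, Scarb2, the carrier of beta-glucocerebrosidase, 0.40, and Mcoln1, a cation channel of lysosomes, 0.21. The other probe set of Scarb2 (-0.13) and of Mcoln1 (-0.06) lay below 0. Npc1, the cholesterol exporter, stayed below the filter at 121 and 85.7.

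**Figure D2:**
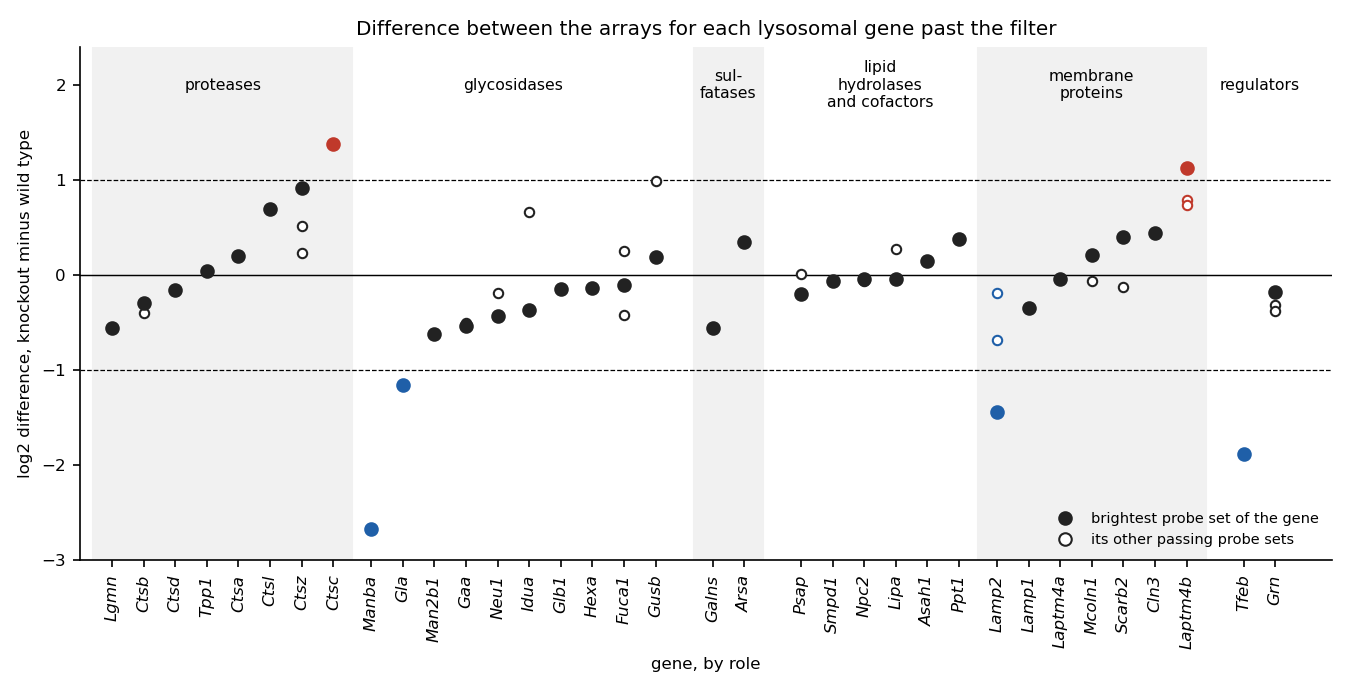
Log2 difference, knockout minus wild type (y axis), of the 35 lysosomal genes past the filter, ordered by role and value (x axis); filled points are the brightest probe set of a gene, open points its other passing probe sets, red genes at least 2-fold higher, blue at least 2-fold lower, and dashed lines mark 2-fold. The glycosidases reach from -2.67 (Manba) to 0.19 (Gusb), whereas the lipid enzymes stay between -0.20 and 0.38.

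Agreement between probe sets could be read for 15 of the lysosomal genes past the filter that had several passing probe sets. In 9 of the 15 all went the same way, against 56.8% of the 2566 such genes on the array, and the median SD within a gene was 0.21. Manba, Tfeb and Ctsc have 1 probe set each and Gla 1 that passed, so these 4 differences have no further probe set to set them against.

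The X-linked members were set beside the whole chromosome. The filter left 238 X-linked genes, 197 of them below 0 and 51 at least 2-fold lower (21.4%), with a median of -0.55. Lamp2 at -1.45 and Gla at -1.16 lay below that median, and the other passing probe sets of Lamp2 and the passing one of Ids were also below 0. The Y-linked gene Eif2s3y read 633 in knockout and 2.04 in wild-type cells. Uty, also Y-linked, read 186 and 74.7, and Kdm5d, below the filter, 47.3 and 69.7. Of 8 Y-linked genes 3 passed the filter, 2 above and 1 below 0. Xist, the RNA of the inactive X chromosome, read 271 and 513 (-0.95). Signals of X-linked genes and of Eif2s3y thus differed together with genotype here. The sex chromosome content of the cells was not measured, and its part in the Lamp2 and Gla values was not tested.

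**Figure D3:**
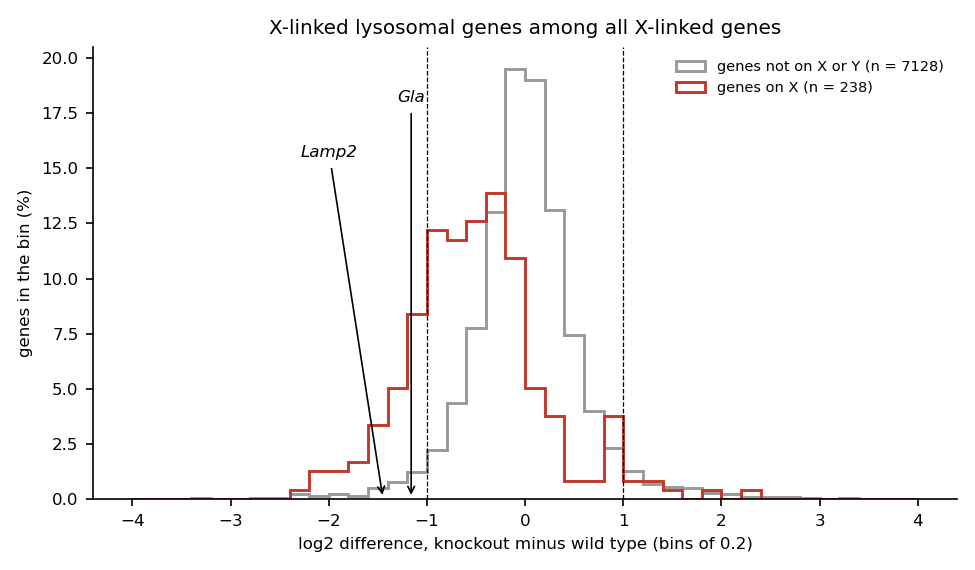
Share of genes (y axis, percent of each group) by log2 difference, knockout minus wild type (x axis, bins of 0.2), for 238 X-linked genes (red) and 7128 genes outside X and Y (grey); arrows mark Lamp2 and Gla and dashed lines 2-fold. The X-linked distribution is shifted to lower values, and both genes lie in its lower part.

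Genes that work with the lysosomal enzymes were compared from 6 further lists. Of 116 genes, 95 had a probe set and 82 passed, and of these 4 were at least 2-fold lower (4.88%, against 3.92% of all genes) and none higher. For the proton pump, none of 15 passing V-ATPase subunits and accessory proteins reached 2-fold, 11 were below 0 and the median was -0.16. With 3.92% of all genes past 2-fold in each direction, a count of none in so short a list is near that share. The lowest value of the pump list belonged to the X-linked accessory gene Atp6ap2, at 2407 and 3855 (-0.70). Another passing probe set of Atp6ap2 gave -0.92, and the other one of Atp6v0a2 gave -0.89. The machinery of mannose 6-phosphate tagging and sorting had none of 10 past 2-fold, again near the share of all genes, and a median of 0.10. Its receptor genes Igf2r (0.11) and M6pr (-0.31) were examples. Neither list showed a difference of the size seen for Manba.

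In the list of further lysosomal genes, 1 of 13 was past 2-fold, the cysteine cathepsin gene Ctsf at 70.4 and 205, 2.96-fold lower (-1.56), and the list median was -0.05. Ctsf passed through the wild-type array alone, so its direction was built into its passing. Among the MiT/TFE factors and the mTORC1 complex, which senses nutrients on the lysosomal surface, Mitf was the 1 of 14 past 2-fold, with a median of -0.08. The autophagy list held Gabarapl2, which encodes a protein of the autophagosome membrane, at 2313 and 5025, 2.21-fold lower (-1.14). It was the 1 of 19 past 2-fold, and the list median was -0.19. Gabarapl1, in the same list, read 653 and 506 (0.35), with 1.06 by its other passing probe set. Of 11 genes for fusion with the lysosome, the X-linked SNARE gene Vamp7 was 2.76-fold lower, at 218 and 592 (-1.46), with -0.71 by its other probe set, and the median was 0.02. Over all lysosomal lists together, the 5 passing X-linked genes were all below 0, as were 197 of all 238 X-linked genes past the filter.

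**Figure D4:**
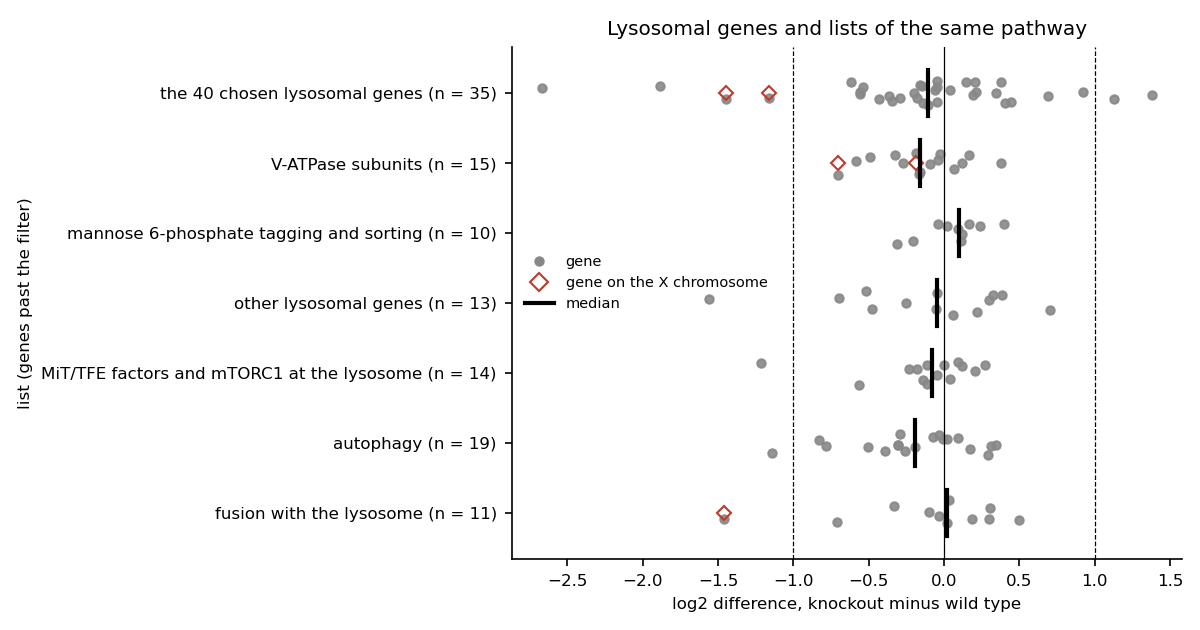
Log2 difference, knockout minus wild type (x axis), of the genes past the filter in the chosen lysosomal set and in 6 lists of the same pathway (y axis); points are genes, open diamonds X-linked genes, black bars medians and dashed lines 2-fold. All 7 medians lie between -0.19 and 0.10, and by its brightest probe set no gene of the 6 further lists lies past 2-fold on the higher side.

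Markers of other cell types left little signal on either array, and their part in the results was not tested. Of 9 macrophage markers 2 passed the filter, and they went in different directions. The lysosomal glycoprotein gene Cd68 read 177 and 323 (-0.90). Csf1r read 183 and 146 (0.30), with -0.96 by its other passing probe set. Below the filter, Lyz2 was higher in the knockout (153 and 72.3) and Adgre1 lower (74.6 and 112). The summed intensities of the list were 816 for knockout and 826 for wild-type cells. The defining marker Ptprc read 25.3 and 7.05, at the floor on both arrays. Of 9 extraembryonic endoderm markers 2 passed, Dab2 (216 and 117) and Amn (158 and 156), with sums of 838 and 945, and Gata4, Gata6 and Sox17 did not pass. Of 8 fibroblast markers 2 passed, Col1a2 and Thy1, with sums of 771 and 738.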

How the data were processed

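One file of deposited values was used, with 22690 probe sets (64 of them controls) on 2 arrays. Per the labels' protocols, total RNA was isolated with RNeasy and 1 ug was labelled by in vitro transcription. The deposited values are linear intensities, scaled by the authors: with 2% of probe sets trimmed at each end, both arrays average 500.2. The labels name no software, scaling method or background correction. A platform annotation of 2016 gave 20380 probe sets 1 gene symbol, 691 several (none with a lysosomal member) and 1555 none.

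Log2 intensities were centred on each array's median over non-control probe sets, with a floor at the 25th percentile (48.4 in the knockout, 47.6 in the wild type). The procedure was tested on simulated data. Python 3.11.15, numpy 2.4.6, pandas 2.3.3 and statsmodels 0.14.6 were used. Members and lists were chosen with earlier results of these data known. Named were all members, from each other list the genes past 2-fold, Id1, Tfe3, Mitf and Flcn; further names were chosen after their values were seen. Alternatives covered quantile and lowess normalization, the floor, the filter, the probe set that stands for a gene, the sex chromosomes and a 1.5-fold threshold. Chromosomes and promoters came from RefSeq tables of assembly GRCm38.p6.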

Additional observations from a re-analysis of the deposited data

How the results depend on the processing

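No paired analysis was possible because each genotype has 1 array. Quantile normalization, lowess centring, no floor and no filter left the same 6 genes past 2-fold. Requiring both arrays at or above their median removed Tfeb (3 lower). The mean of all probe sets left 1 higher (Ctsc) and 2 lower (Manba and Tfeb), and a floored probe set counts as 0 in that mean, which is how Gla was lost. Leaving out probe sets with _s_at, _x_at or _a_at names left 1 higher (Ctsc) and removed Lamp2, at -0.19 by its remaining brightest probe set, and Laptm4b, at 0.74. Without X-linked and Y-linked genes 2 were lower. At 1.5-fold, 4 were higher and 5 lower, with Ctsl, Ctsz and Man2b1 added. With no filter, all genes gave 435 higher and 443 lower, and with both arrays at or above their median 134 and 153. The median of the members stayed between -0.12 and -0.06. Of 264 single-gene values over 35 members, 252 moved by no more than 0.22, 12 moved further, and no difference past 2-fold changed sign. The floor, filter and sex chromosome settings could not change a single-gene value, because no passing member's brightest probe set was at the floor. Their values are therefore no check, although they are counted in the 252. All 12 larger moves came from the mean of all probe sets or from leaving out probe sets by name.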

Other observations

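The neighbours of the 6 lysosomal genes past 2-fold were looked up after those genes were known, as the nearest 2 genes with a probe set on each side in the RefSeq gene order. Next to Manba on chromosome 3, Slc39a8, a metal ion transporter gene, differed in the opposite direction: it read 309 in knockout and 27.4 in wild-type cells, the latter below the floor, which is at least 6.40-fold higher. On the other side, the ubiquitin-conjugating enzyme gene Ube2d3 was equal (12795 and 12234, 0.04), and Slc9b1 gave -0.07. The fourth neighbour, the calcineurin subunit gene Ppp3ca, read 213 and 369 (-0.82). None of the 4 was at least 2-fold lower. Next to Tfeb on chromosome 17, Mdfi, which encodes an inhibitor of myogenic basic helix-loop-helix factors, read 70.1 and 153, 2.22-fold lower (-1.15), and Frs3 read 216 and 306 (-0.53). Mdfi passed the filter through the wild-type array alone and Slc39a8 through the knockout array alone, so their directions were built into their passing. Beside Laptm4b on chromosome 15, Rida (0.77) and Mtdh (0.41) were higher without reaching 2-fold, while Cpq and Matn2 were at the floor on both arrays. Ctsc, Gla and Lamp2 had 4 neighbours each, of which 1, 3 and 2 passed the filter, and none that passed was past 2-fold. Neighbours below the filter could not be counted as past 2-fold.

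Rragd, which encodes a GTPase that recruits mTORC1 to the lysosome and is a known target of TFEB, stayed below the filter, at 117 for knockout and 42.1 for wild-type cells, the latter below the floor (at least 2.42-fold higher). Ctsk, from the list of further lysosomal genes, also stayed below the filter. It read 9.42 for knockout cells, below the floor, and 97.4 for wild-type cells (at least 2.05-fold lower). These bounds go in opposite directions and rest on signals below the array medians, and a link to Tfeb was not tested.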
